A study of Rattus norvegicus with 9 samples.

Results

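AP-1 is a family of transcription factors, and the account here covers 10 rat genes that encode AP-1 subunits or their close leucine-zipper relatives: Fos, Fosb, Fosl1, Fosl2, Jun, Junb, Jund, Atf3, Batf and Maff. They were found by their symbols in a table of read counts for 37203 genes, where all 10 had a row with a value in each of the 9 libraries. The RNA came from superior mesenteric arteries of 8-week-old Sprague-Dawley rats weighing 220 to 240 g, with 3 libraries from normal rats, 3 from rats after 1 h of ischemia and 3 from rats after 4 h of ischemia. Ischemia was produced in the whole animal by letting blood from a catheter in the right femoral artery under sodium pentobarbital, and the time was counted from when the model was established. Whether the normal rats were anaesthetised and catheterised in the same way is not given in the sources used here, so surgery and blood loss cannot be told apart in any comparison with them. The labels name no other treatment and no transgenic or deleted allele for any of the 9 rats.

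The subunits of AP-1 bind DNA as pairs held together by a leucine zipper. JUN proteins can pair with each other or with FOS proteins, whereas FOS proteins need a JUN partner. ATF3 and BATF pair with JUN proteins, and MAFF, a small MAF protein without an activation domain of its own, pairs with CNC factors such as NRF2 and can also bind FOS. FOS, FOSB, JUN and JUNB are textbook immediate-early genes, whose transcripts appear within minutes of growth factors, stretch, stress kinase signalling or tissue handling and then decay quickly, while FOSL1 and FOSL2 usually follow later. In arteries AP-1 is known from smooth muscle growth, vessel injury and the control of inflammatory and matrix genes.

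Each library held between 13114273 and 15504240 counts. Levels are given in CPM, which are counts scaled to library size, here with edgeR's TMM factors, which ran from 0.814 to 1.22. All 10 smooth muscle markers on a fixed list passed the filter on low counts, and their summed level ran from 11638 to 72268 CPM over the 9 libraries. The libraries also differed in nerve transcripts: the summed level of 23 sympathetic neuron and Schwann cell markers was 138 to 3792 CPM in the normal libraries, 2534 to 10827 CPM at 1 h and 327 to 10668 CPM at 4 h. The sums ran from 758 to 1605 CPM for endothelial markers, 360 to 2377 CPM for adipocyte markers, 41.2 to 231 CPM for macrophage markers, 4.88 to 93.9 CPM for lymphocyte markers and 0.99 to 6.69 CPM for neutrophil markers. In a whole artery a lower share of cells of a type and less RNA per cell cannot be told apart.

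9 of the 10 AP-1 genes passed the filter on low counts, and Batf did not. No AP-1 gene was called in any comparison, where called means an adjusted p under 0.05 in edgeR's quasi-likelihood test over 15482 genes and a fold over 1.5. This stands against a background of few calls in all: 0.0581% of the genes tested were called at 1 h against normal, 0.0904% at 4 h against normal, 0% at 4 h against 1 h and 0.0388% in the test for any difference among the 3 groups. Without adjustment, 4 of the 9 members passed the 0.05 threshold at 1 h, and all 4 had higher levels than normal (Fosl1, Fosl2, Junb and Maff). Of all genes tested, 7.98% passed it in that direction and 16.7% in either. At 4 h, 4 of the 9 again passed it with higher levels (Fosb, Fosl2, Jun and Junb), against 5.07% of all genes in that direction and 12.4% in either. Fosl1 passed the low-count filter only through its 1 h libraries, and it was not tested when only normal and 4 h libraries were fitted. Its place among the tested members, the 4 at 1 h and the medians below thus rests on the group where it was high. The log2 difference from normal was above 0 in 8 of 9 members at both times. Its median over the members was 1.25 at 1 h and 1.10 at 4 h, whereas the median over all genes tested was -0.01 and 0.03. Both comparisons used the same 3 normal libraries, so they are not independent of each other. The members were chosen with earlier results of these data known, so their contrast with all genes is no test of the family.

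**Figure D1:**
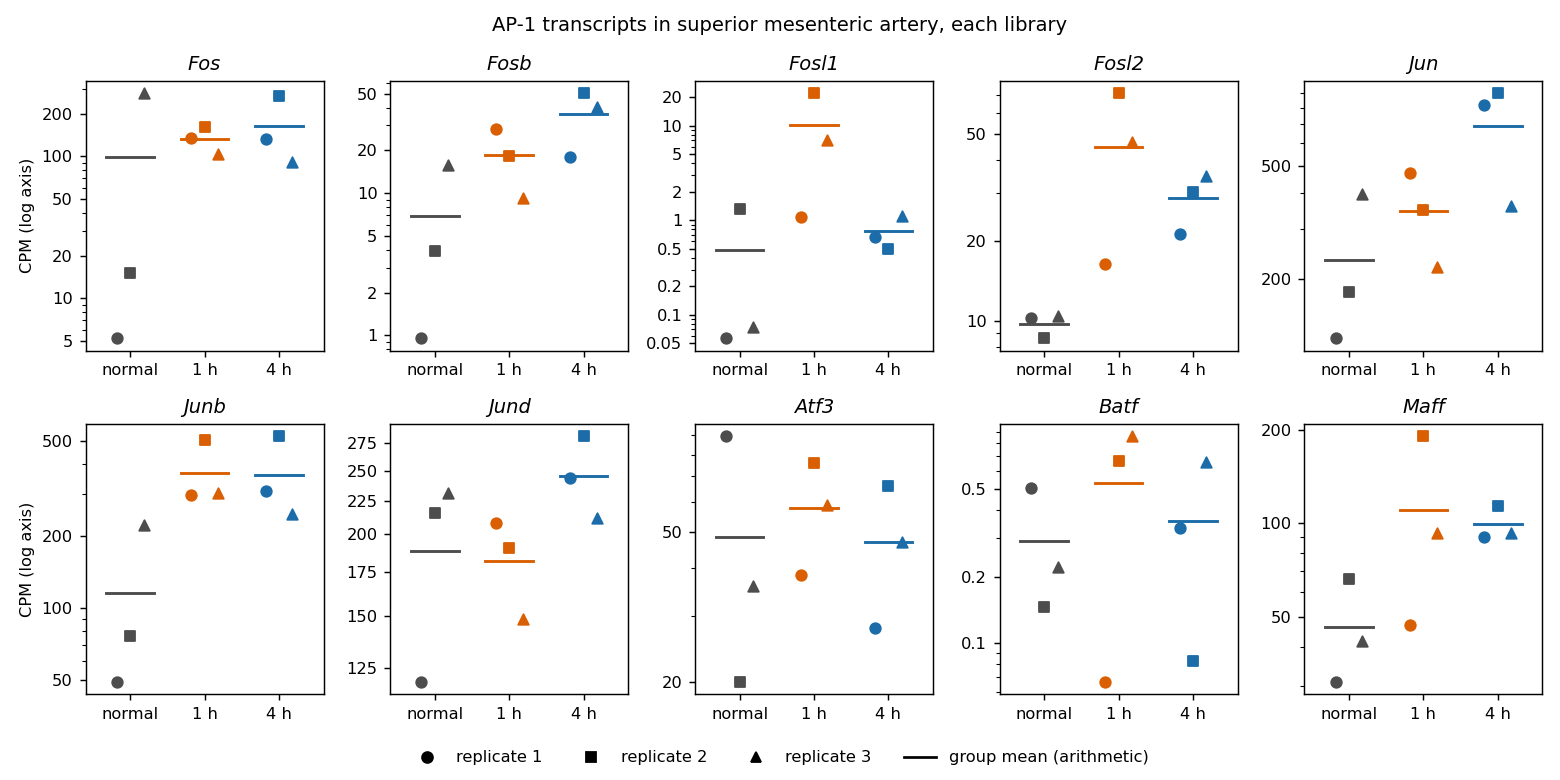
Level of each of the 10 AP-1 genes in each library, in CPM on a log axis with its own range per gene. Symbols are single libraries, their shape gives the replicate number and lines are arithmetic group means. The 3 normal values of Fosl2 lie between 8.61 and 10.4 CPM, below every ischemic library, whereas Fos in normal replicate 3 (278 CPM) is above every ischemic library.

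Fosl2, which encodes the FOS-related protein FRA2, had the most even normal levels and the smallest unadjusted p of the family in both comparisons with normal. Its levels were 10.2, 8.61 and 10.4 CPM in the normal arteries, 16.3, 71.1 and 46.6 CPM at 1 h, and 21.2, 30.5 and 34.8 CPM at 4 h. All 6 ischemic libraries were above all 3 normal ones, and at 1 h replicate 1 was far below the other two. The group means were 9.76 ± 1.00 CPM in normal arteries, 44.6 ± 27.4 CPM at 1 h and 28.9 ± 6.92 CPM at 4 h (SD, n = 3 each). The fitted log2 difference was 2.19 (SE 0.48) at 1 h and 1.56 (SE 0.47) at 4 h. The adjusted p of edgeR's quasi-likelihood test was 0.178 at 1 h and 0.233 at 4 h. By its unadjusted value in that test, Fosl2 stood at rank 142 of the 15482 genes at 1 h.

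The call on Fosl2 depended on the tool. DESeq2 called it at 1 h (adjusted p = 0.00150) and just inside the threshold at 4 h (adjusted p = 0.0498). DESeq2 called 4.28% of the genes it tested at 1 h and 3.52% at 4 h, far more than edgeR did. With each library left out in turn, the log2 difference of Fosl2 stayed between 1.69 and 2.59 at 1 h and between 1.41 and 1.72 at 4 h. In edgeR the only call among these 9 fits for either time came at 1 h without 1 h replicate 1 (log2 difference 2.59, adjusted p = 0.0467). With the nerve marker score as a covariate the differences were 2.11 (SE 0.56) and 1.55 (SE 0.48).

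Fosl1, which encodes FRA1, had few counts in normal arteries and its highest levels in 2 of the 1 h libraries. The normal libraries held 1, 18 and 1 counts, the 1 h libraries 16, 331 and 115 counts, and the 4 h libraries 8, 6 and 17 counts. In CPM the 1 h libraries were at 1.07, 22.1 and 7.07, so replicates 2 and 3 were above every other library and replicate 1 was below normal replicate 2, at 1.31 CPM. The fitted log2 difference from normal was 4.39 (SE 1.37, adjusted p = 0.234 in edgeR) at 1 h and 0.69 (SE 1.30, adjusted p = 0.856) at 4 h. Normal replicates 1 and 3 held 1 count each, so the size of the difference rests on few counts. Leaving out 1 library gave 3.08 (without 1 h replicate 2) to 7.12 (without normal replicate 2) at 1 h and 0.14 (without normal replicate 1) to 3.43 (without normal replicate 2, adjusted p = 0.504 in edgeR) at 4 h. DESeq2 called Fosl1 at 1 h (log2 difference 4.43, adjusted p = 0.0116) and not at 4 h.

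Fosl1 was also the one member that passed 0.05 without adjustment between the ischemic times, with a log2 difference at 4 h against 1 h of -3.70 (SE 1.32, adjusted p = 0.856 in edgeR). Of all genes, 2.58% passed 0.05 in this comparison, and DESeq2 called 0 members in it. Fosl1 and Fosl2 were the 2 members that DESeq2 called for any difference among the 3 groups, where it called 627 genes in all and edgeR called 6. In edgeR 4 members (Fosl1, Fosl2, Jun and Junb) passed 0.05 without adjustment there, against 11.4% of all genes, with adjusted p-values from 0.248 for Fosl2 to 0.415 for Jun. Since Fosl1 passed the low-count filter only through its 1 h libraries, its edgeR results in both comparisons rest on the group where it was high.

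Promoter sequences were available from RefSeq (GRCr8) for 7 of the 10 genes, namely Fosb, Fosl1, Fosl2, Junb, Jund, Batf and Maff. The 250 bases before the annotated start are shown for the 4 members that passed 0.05 without adjustment at 1 h, a choice made from these same data. Capitals mark the letters of the motifs searched, which were TGANTCA (the AP-1 site), TGACGTCA (the cAMP response element, bound by CREB and by JUN paired with ATF proteins), the CArG box of serum response factor, an NF-kB-like motif of 3 G, any 5 bases and 2 C, and TATAAA.
Fosl2, chr6:30039270-30039519, minus strand: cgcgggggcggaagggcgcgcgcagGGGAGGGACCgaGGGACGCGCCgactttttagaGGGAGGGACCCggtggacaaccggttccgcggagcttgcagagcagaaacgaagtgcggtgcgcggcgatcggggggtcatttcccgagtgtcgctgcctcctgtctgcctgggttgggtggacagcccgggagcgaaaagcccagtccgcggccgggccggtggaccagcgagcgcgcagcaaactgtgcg
Fosl1, chr1:212183635-212183884, plus strand: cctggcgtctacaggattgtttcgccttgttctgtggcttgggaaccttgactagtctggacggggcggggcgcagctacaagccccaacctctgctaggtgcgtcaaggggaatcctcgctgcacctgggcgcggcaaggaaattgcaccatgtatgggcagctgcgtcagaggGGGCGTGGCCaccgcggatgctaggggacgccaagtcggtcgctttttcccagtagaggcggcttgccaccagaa
Junb, chr19:40080876-40081125, plus strand: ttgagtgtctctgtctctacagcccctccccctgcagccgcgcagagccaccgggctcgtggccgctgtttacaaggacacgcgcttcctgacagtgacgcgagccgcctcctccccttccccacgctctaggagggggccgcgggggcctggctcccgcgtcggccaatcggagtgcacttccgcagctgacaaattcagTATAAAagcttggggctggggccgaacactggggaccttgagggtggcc
Maff, chr7:112792537-112792786, plus strand: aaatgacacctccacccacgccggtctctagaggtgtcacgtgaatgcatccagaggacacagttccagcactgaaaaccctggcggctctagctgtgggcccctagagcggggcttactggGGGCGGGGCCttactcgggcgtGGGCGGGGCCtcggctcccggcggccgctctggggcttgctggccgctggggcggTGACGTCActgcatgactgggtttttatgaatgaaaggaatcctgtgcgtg

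Both strands were searched over 300 bases, from 250 before to 50 after the start. Counted from the start, Fosl2 held the NF-kB-like motif from -225, -213 and -192, the last of which overlaps a match on the other strand. Maff held it from -128 and -106 and Fosl1 from -75. This pattern is frequent: 47.3% of 33469 rat promoters of the same length held it, as did 6 of the 7 members. The pattern leaves the bases between GGG and CC open, so a match alone does not mark an NF-kB site. The matches named above read GGGAGGGACC and GGGACGCGCC in Fosl2, GGGCGGGGCC in Maff and GGGCGTGGCC in Fosl1. Batf, whose promoter is not shown, held GGGATTTTCC from -227. Binding of NF-kB to any of these matches was not tested. TGACGTCA was in 1.83% of promoters and in Jund and Maff, in Maff from -51 to -44. TATAAA, in 14.2% of promoters, was in Junb from -49 to -44 and on the other strand in Fosb. TGANTCA (7.33% of promoters) and the CArG box (1.64%) were in none of the 7, in these windows.

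Fos and Fosb, the fast members of the FOS group, were dominated in the normal arteries by 1 library. Fos was at 5.21, 15.2 and 278 CPM in the normal libraries, at 135, 161 and 103 CPM at 1 h and at 132, 266 and 91.1 CPM at 4 h. Normal replicate 3 had the highest Fos level of all 9 libraries, and the other 2 normal libraries had the lowest. The means were 99.5 ± 155, 133 ± 28.9 and 163 ± 91.4 CPM (SD, n = 3 each), and the log2 difference from normal was 0.42 (SE 1.18) at 1 h and 0.71 (SE 1.19) at 4 h, with adjusted p-values of 0.865 and 0.831 in edgeR. The size depended on the method: limma-voom gave 2.28 (SE 1.25, adjusted p = 0.352) and 2.46 (SE 1.24, adjusted p = 0.491), neither of them a call.

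Without normal replicate 3 the log2 difference of Fos was 3.71 (SE 0.67, adjusted p = 0.330 in edgeR) at 1 h and 4.00 (SE 0.68, adjusted p = 0.184) at 4 h, and it was not called at either time. Without normal replicate 2 the 1 h difference was -0.15, so even the direction of Fos at 1 h rested on which normal library was kept. The same library was the highest normal one for Fosb, Jun, Junb and Jund, and the choice of library moved these genes too: without it the 1 h difference was 2.93 for Fosb, 1.20 for Jun and 2.54 for Junb, and the 4 h difference 3.90, 2.19 and 2.51. Its mitochondrial share of counts, 29.3%, was also the highest of the 9 libraries, and the part of RNA quality or handling in these levels was not tested. With normal replicate 3 left out, 6 members at 1 h and 5 at 4 h passed 0.05 without adjustment with higher levels, beside 4.45% and 4% of all genes in that direction in the same fit, and again none was called.

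Fosb was at 0.95, 3.94 and 15.7 CPM in the normal libraries, at 28.1, 18.2 and 9.28 CPM at 1 h and at 17.9, 50.5 and 40.5 CPM at 4 h. At 4 h all 3 libraries were above all 3 normal ones, whereas 1 h replicate 3 was below normal replicate 3. The log2 difference was 1.43 (SE 0.89, adjusted p = 0.390 in edgeR) at 1 h and 2.40 (SE 0.91, adjusted p = 0.336) at 4 h.

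Among the JUN genes, Junb was higher in every ischemic library than in any normal one. JUNB pairs with FOS proteins and can hold back JUN-driven transcription. Its levels were 49.3, 76.6 and 223 CPM in the normal libraries, 296, 503 and 301 CPM at 1 h and 307, 520.3 and 248 CPM at 4 h. The gap between the groups was narrow at 4 h, where replicate 3 was close to normal replicate 3. The log2 difference was 1.66 (SE 0.57) at 1 h and 1.63 (SE 0.57) at 4 h, with adjusted p-values of 0.261 and 0.307 in edgeR. Leaving out 1 library at a time gave 1.29 to 2.54 at 1 h and 1.26 to 2.51 at 4 h, the highest in both without normal replicate 3.

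Jun, the partner of most AP-1 dimers, had its highest levels at 4 h. It was at 124, 179.5 and 397 CPM in the normal libraries, at 471, 351 and 220.4 CPM at 1 h and at 815, 899 and 362 CPM at 4 h. The 4 h replicates 1 and 2 were above every other library, but 4 h replicate 3 was below normal replicate 3. The log2 difference was 0.57 (SE 0.52, adjusted p = 0.562) at 1 h and 1.57 (SE 0.53, adjusted p = 0.289) at 4 h, and 0.99 (SE 0.53, adjusted p = 0.856) at 4 h against 1 h, all in edgeR.

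Jund, which is expressed in most resting cells and is the least inducible JUN gene, stayed between 119 and 282 CPM in all 9 libraries. It was at 119, 216 and 231 CPM in the normal libraries, at 208, 190.4 and 149 CPM at 1 h and at 243, 282 and 211 CPM at 4 h. The normal range took in all 3 of the 1 h values, and the log2 difference was -0.05 (SE 0.28) at 1 h and 0.38 (SE 0.28) at 4 h. The adjusted p-values were 0.938 and 0.596 in edgeR. All 3 of the 4 h libraries were above all 3 of the 1 h libraries, the one such case in the family, while 6.24% of all genes had 4 h and 1 h groups that did not overlap. Jund varied with smooth muscle transcripts across the 9 libraries, with a Pearson r of 0.86 between its log2 CPM and the summed smooth muscle markers, given as a description only.

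The balance of the JUN genes can be read without any scaling, as the ratio of Junb to Jun counts within a library. It was 0.399, 0.426 and 0.561 in the normal libraries, 0.628, 1.43 and 1.37 at 1 h and 0.377, 0.579 and 0.684 at 4 h. Every 1 h library had a higher ratio than every normal one, by 2.35-fold in the geometric means, whereas the 4 h range overlapped both. The exact two-sided permutation test for 1 h against normal gave p = 0.1, the smallest value that 3 against 3 libraries allow, and 0.771 after adjustment over the 9 comparisons of 3 ratios. The ratio was chosen after the values of both genes were known.

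Maff was at 31.0, 66.3 and 41.7 CPM in the normal libraries, at 47.2, 190.0 and 92.8 CPM at 1 h and at 90.6, 114 and 93.3 CPM at 4 h. All 3 of the 4 h libraries lay above all 3 normal ones and close together, at 99.3 ± 12.7 CPM (SD, n = 3), whereas 1 h replicate 1 fell within the normal range. The log2 difference was 1.25 (SE 0.48, adjusted p = 0.284 in edgeR) at 1 h and 1.10 (SE 0.48, adjusted p = 0.405) at 4 h. The 1 h difference rested in part on replicate 2: it was 0.59 (SE 0.38, adjusted p = 0.384) without 1 h replicate 2 and 1.61 without 1 h replicate 1. With the nerve marker score as a covariate it was 1.70 (SE 0.51).

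Atf3, a stress-response gene that also marks injured peripheral neurons, did not stand apart in either ischemic group. It was at 89.3, 20.1 and 35.9 CPM in the normal libraries, at 38.3, 76.1 and 58.7 CPM at 1 h and at 27.9, 65.9 and 46.9 CPM at 4 h. Normal replicate 1 held the highest level of the 9 and normal replicate 2 the lowest. The log2 difference was 0.25 (SE 0.55, adjusted p = 0.823 in edgeR) at 1 h and -0.05 (SE 0.55, adjusted p = 0.983) at 4 h, and its direction turned when single libraries were left out. Batf, a lymphoid and myeloid AP-1 factor, had 9, 2 and 3 counts in the normal libraries, 1, 10 and 14 at 1 h and 4, 1 and 10 at 4 h. These counts overlapped throughout, and no difference was detectable at this depth.

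**Figure D2:**
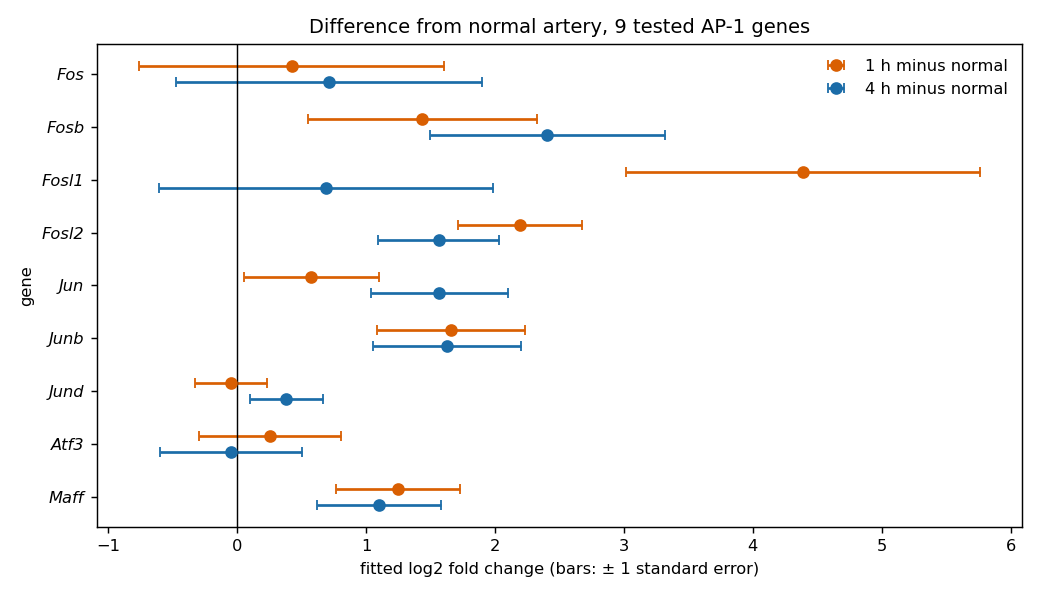
Fitted log2 difference of the 9 tested AP-1 genes at 1 h and at 4 h from normal, with bars of 1 SE to each side, derived from edgeR's F statistic. Fosl2 lies at 2.19 and 1.56 with bars of 0.48 and 0.47 to each side, whereas the bars of Fos are over 1 log2 unit. Fosl2 was not called (adjusted p = 0.178 and 0.233 in edgeR's quasi-likelihood test).

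Without overlap between groups, 2 of the 9 members (Fosl2 and Junb) were higher at 1 h than in normal arteries, where 12.8% of all genes were. At 4 h the number was 4 of 9 (Fosb, Fosl2, Junb and Maff) against 7.93% of all genes. No member had a group that lay wholly below normal at either time. The order of the groups differed between members: the mean was highest at 1 h for Fosl1, Fosl2, Junb, Atf3, Batf and Maff and at 4 h for Fos, Fosb, Jun and Jund. For Junb and Maff the 1 h and 4 h means differed by less than the SD of either group, at 367 ± 118 against 358 ± 143 CPM and at 110.0 ± 72.9 against 99.3 ± 12.7 CPM (SD, n = 3 each).

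**Figure D3:**
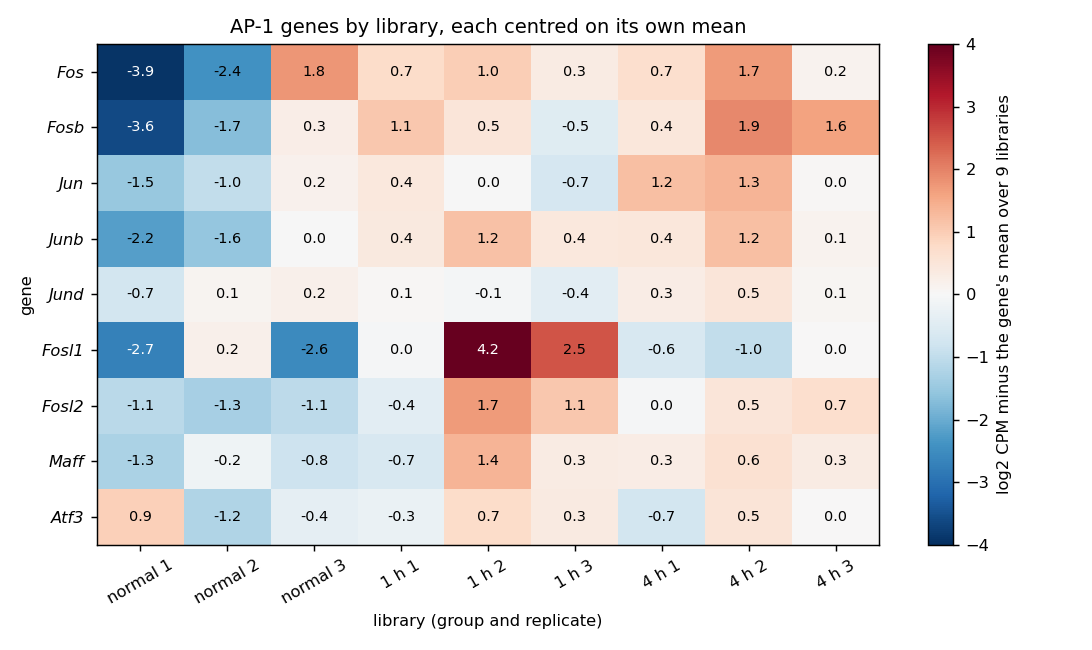
Log2 CPM of each AP-1 gene in each library minus that gene's mean over the 9 libraries, with rows as genes and columns as libraries. Normal replicates 1 and 2 are low for Fos, Fosb, Jun and Junb, and normal replicate 3 is not.

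Across the 9 libraries some members varied together, described here with no test, since the libraries share groups and differ in tissue makeup and scaling. Fos, Fosb and Junb varied together, with a Pearson r of log2 CPM of 0.924 for Fos and Junb, 0.888 for Fos and Fosb and 0.880 for Fosb and Junb. Fosl2 varied with Maff (r = 0.858) and with Fosl1 (r = 0.788), while Fosl1 and Jun showed no such relation (r = -0.027). The lowest value was that of Jund and Atf3, at -0.508.

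The genes most like each member were taken from 10439 other genes averaging at least 5 CPM, by the Pearson r of log2 CPM over the 9 libraries. For Junb they were Zfp36 (0.970), which encodes an mRNA-destabilising protein, Btg2 (0.954) and Egr1 (0.948), the last an immediate-early zinc finger factor. For Fosl2 they were Cebpd (0.981), which encodes an acute-phase transcription factor, Bzw1 (0.980) and Icam1 (0.973), an endothelial adhesion molecule. Jun was most like Uqcrb (0.974), a subunit of mitochondrial complex III, Dusp1 (0.962), a phosphatase of MAP kinases, and Ndufa5 (0.959). For Atf3 they were Vwa1 (0.991), Lgi4 (0.989) and Mlip (0.984), of which Lgi4 is a Schwann cell gene. Atf3 had the highest r with the nerve marker score of the 9 tested members, at 0.54, and an r of -0.54 with the summed smooth muscle markers. Its highest level, 89.3 CPM, was in normal replicate 1, where the nerve markers summed to 3792 CPM. In 1 h replicate 1 they summed to 10108 CPM and Atf3 was at 38.3 CPM. A nerve source of Atf3 was not tested. Maff was most like Ddx3x (0.978), Fosl1 most like Nsun6 (0.968), Fos most like Calm2 (0.917), Fosb most like Ube2l3 (0.940) and Jund most like Oaz2 (0.978).

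**Figure D4:**
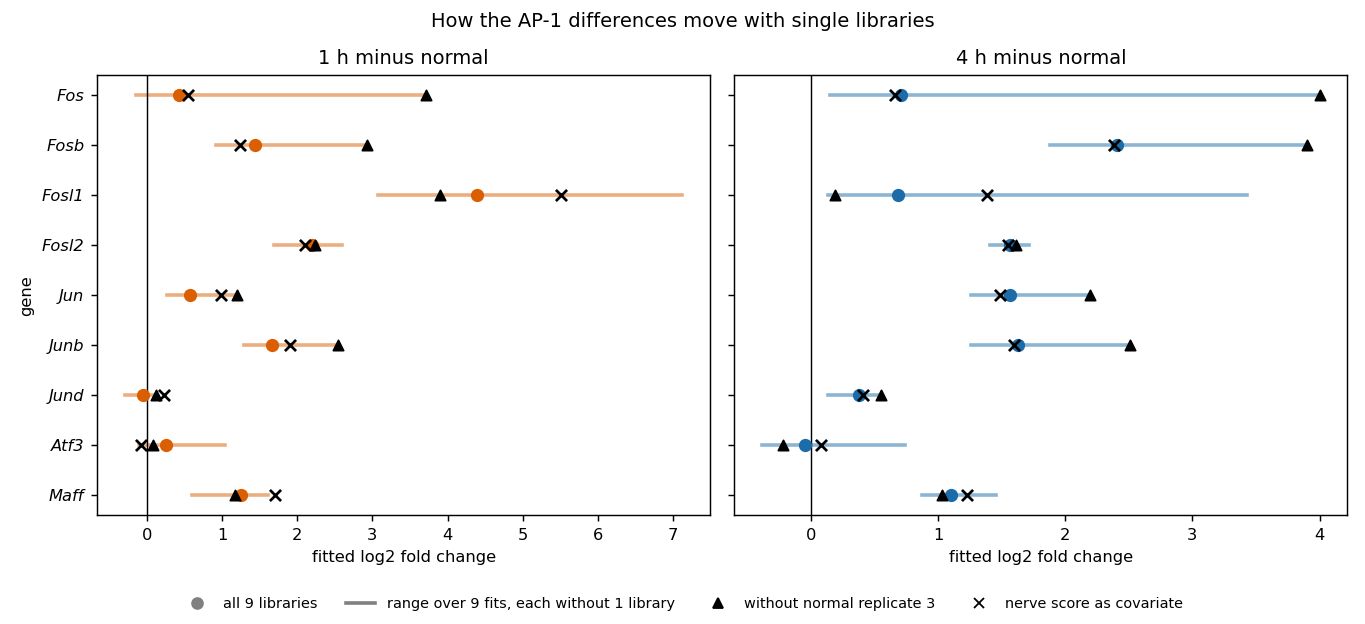
Log2 difference from normal of the 9 tested AP-1 genes at 1 h and 4 h. Circles use all 9 libraries, lines span the 9 fits that each leave out 1 library, triangles leave out normal replicate 3 and crosses add the nerve score as a covariate. Fosl2 spans 1.69 to 2.59 at 1 h, whereas Fos spans -0.15 to 3.71, the upper end without normal replicate 3.

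AP-1 activity is set in large part by MAP kinases, which raise FOS and JUN transcription and phosphorylate the JUN proteins. Of 22 such kinases on a list, 19 were tested and edgeR called none in either comparison with normal. Without adjustment 5 were higher and 2 lower at 1 h, where 7.98% of all genes were higher and 16.7% passed in either direction. At 4 h 2 were higher and 3 lower, where 5.07% of all genes were higher and 12.4% passed in either direction. The median log2 difference of the list was 0.08 at 1 h and 0.07 at 4 h. Map2k4, a kinase that activates JNK and p38, was between 14.5 and 15.9 CPM in the normal libraries, at 32.1, 24.2 and 30.1 CPM at 1 h and at 25.1, 22.3 and 32.5 CPM at 4 h. All 6 ischemic libraries were above the normal ones, with a log2 difference of 0.93 (SE 0.20, adjusted p = 0.175 in edgeR) at 1 h and 0.82 (SE 0.20, adjusted p = 0.167) at 4 h. Map3k8, an activator of MEK in inflammatory signalling, had a log2 difference of 2.44 (SE 0.54, adjusted p = 0.182) at 1 h and 1.41 (SE 0.53, adjusted p = 0.332) at 4 h. DESeq2, which called 4.28% of all genes at 1 h and 3.52% at 4 h, called Map2k4 at both times and Map3k8 at 1 h. Map2k7, the other direct JNK activator, was among those that were lower, with -0.42 (SE 0.15, adjusted p = 0.272 in edgeR) at 1 h and -0.47 (SE 0.15, adjusted p = 0.268) at 4 h. Map3k1 at 4 h had -1.42 (SE 0.45, adjusted p = 0.257), and Map2k1 and Mapk14 at 1 h had 0.94 (SE 0.35, adjusted p = 0.272) and -0.52 (SE 0.18, adjusted p = 0.260).

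Other leucine-zipper genes that pair or compete with AP-1 showed no common direction. Of 22 on a list 19 were tested, and edgeR called none. Without adjustment 2 were higher and 3 lower at 1 h, and 0 were higher and 1 lower at 4 h, beside 16.7% and 12.4% of all genes in either direction. The median log2 differences of the list were -0.04 and -0.29. Crem, whose short product ICER represses cAMP-responsive genes, was at 18.9, 19.6 and 14.6 CPM in the normal libraries, at 21.1, 86.3 and 66.5 CPM at 1 h and at 29.4, 22.6 and 34.9 CPM at 4 h. It shared with Fosl1 and Fosl2 a 1 h replicate 1 far below replicates 2 and 3, and its log2 difference was 1.71 (SE 0.46, adjusted p = 0.216 in edgeR) at 1 h. That pattern was not particular to leucine-zipper genes. Map3k8 was at 13.6, 57.8 and 47.2 CPM and the AP-1 target Hmox1 at 9.97, 35.4 and 22.0 CPM at 1 h. For Map2k4, in contrast, 1 h replicate 1 was the highest. DESeq2 called Crem at 1 h (log2 difference 1.74, adjusted p = 0.0194) and no gene of this list at 4 h. Maf, a large MAF factor, and Atf7, an ATF2 relative, were lower at 1 h by the same unadjusted threshold, at -0.78 (SE 0.27, adjusted p = 0.260) and -0.56 (SE 0.18, adjusted p = 0.236), and Mafg was at 0.39 (SE 0.16, adjusted p = 0.294). At 4 h Atf7 was at -0.44 (SE 0.18, adjusted p = 0.360).

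Of 28 genes listed as known AP-1 targets 21 were tested, and again none was called by edgeR. Without adjustment 11 were higher and 1 lower at 1 h, and 7 were higher and 0 lower at 4 h, beside 7.98% and 5.07% of all genes with higher levels. The median log2 difference of the list was 1.32 at 1 h and 0.71 at 4 h, and 11 and 8 of the 21 were above normal without overlap, as were 12.8% and 7.93% of all genes. DESeq2 called 8 of the 21 at 1 h and 5 at 4 h, beside 4.28% and 3.52% of all genes. Cxcl1, a neutrophil-attracting chemokine, was at 1.18, 1.02 and 4.58 CPM in the normal libraries, at 118, 445 and 605 CPM at 1 h and at 73.0, 204 and 629 CPM at 4 h. Its log2 difference was 7.43 (SE 1.20, adjusted p = 0.117 in edgeR) at 1 h and 7.07 (SE 1.18, adjusted p = 0.0712) at 4 h. Hmox1, the haem-degrading oxygenase, had a log2 difference of 3.17 (SE 0.61, adjusted p = 0.145) at 1 h and 2.37 (SE 0.60, adjusted p = 0.171) at 4 h. Edn1, which encodes the vasoconstrictor endothelin-1, had 2.46 (SE 0.52, adjusted p = 0.118) at 4 h. These genes also answer to NF-kB and other factors, and binding of AP-1 to them was not measured. The target list, too, was chosen with earlier results of these data known. Il6, also on it, was at 0 to 0.44 CPM in the normal libraries and passed the low-count filter only through ischemic libraries. Its part in the counts, DESeq2 calls and medians of this list thus rests on the groups where it was high.

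**Figure D5:**
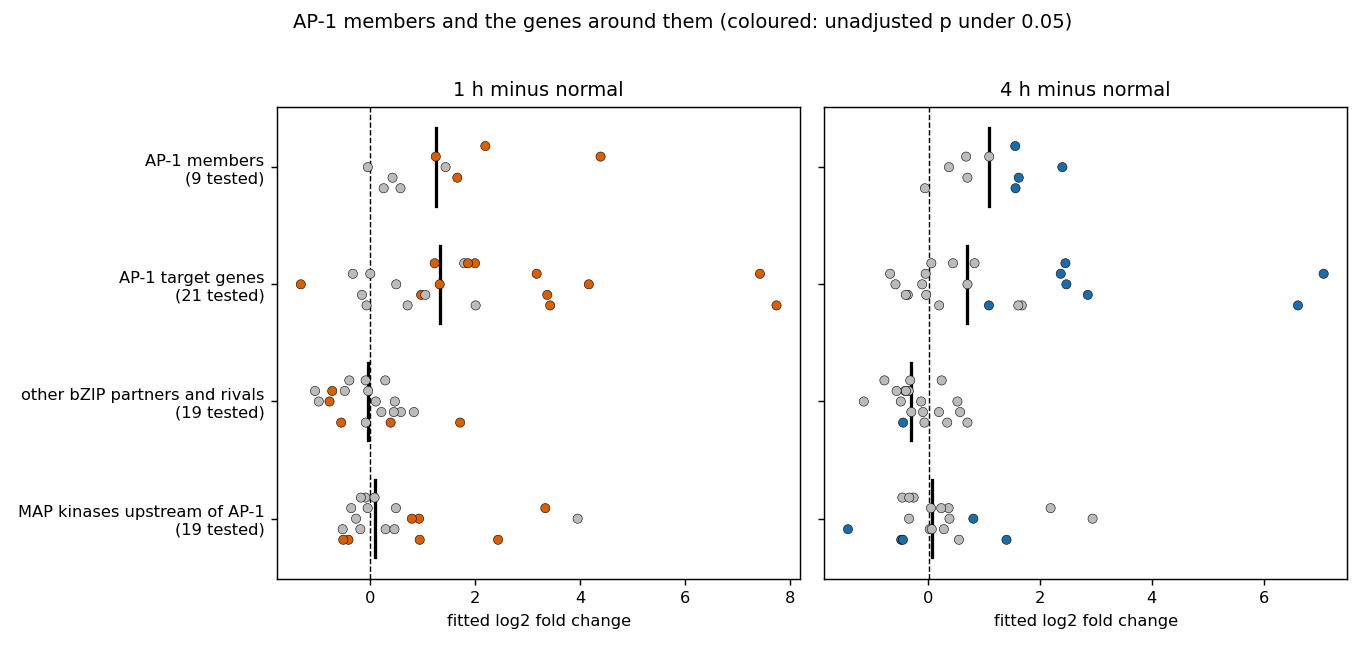
Log2 difference from normal at 1 h and 4 h for every tested gene of the AP-1 members and of the 3 pathway lists, with the median of each list as a bar and genes that passed 0.05 without adjustment in colour. The medians of the members (1.25 and 1.10) and of the target genes (1.32 and 0.71) lie above those of the MAP kinases (0.08 and 0.07) and of the other leucine-zipper genes (-0.04 and -0.29). The members and lists were chosen with earlier results of these data known, so this order is a description only. Fosl1 among the members and Il6 among the targets passed the low-count filter only through ischemic libraries.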

How the data were processed

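RNA from whole superior mesenteric arteries was measured in 9 rats. The authors deposited a table of whole-number read counts per gene, not normalized. HISAT2 is named in the submitters' processing notes. Its version, the genome build, the annotation, the counting program and the strand setting are not given in the sources used here. The study's methods describe microarrays for such arteries and its results also name transcriptome sequencing, and the deposited values are counts. Samples were grouped by their labels, and the series text gives 3 rats per group.

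Of 37203 genes, 13156 had no count and 15482 passed edgeR's filterByExpr. The main test was edgeR 4.0.16 (R 4.3.3), quasi-likelihood, TMM scaling, all 9 libraries in 1 fit with group as the only term, and Benjamini-Hochberg adjustment over all 15482 genes. A call needed an adjusted p under 0.05 and a fold over 1.5. The SE of an edgeR fit was the absolute log2 difference divided by the square root of the test's F. The common biological coefficient of variation was 51.6%. CPM values used TMM-scaled library sizes, and log2 CPM a prior count of 2. DESeq2 1.42.0, limma-voom 3.58.1, other scalings, no low-count filter, only the groups compared, a replicate block, the nerve score as a covariate and leaving out each library were alternatives. Scripts were tested on simulated data. No 2 libraries agreed within sampling noise (lowest chi-square per degree of freedom 30.2).

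The members and gene lists were chosen with earlier results of these data known. All 10 members are named. From each pathway list the text names each gene called and, per comparison with normal, up to 3 higher and 2 lower genes with the smallest unadjusted p under 0.05 that averaged at least 1 CPM. Of the genes this rule names, 2 are not reported here. For likeness the 3 genes of highest r were found per member, passing over uncharacterised ones, and the report gives at least the first. Levels were not compared between genes, since transcript lengths were not used here. Promoters were from RefSeq.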

Additional observations from a re-analysis of the deposited data

How the results depend on the processing

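No AP-1 gene was called under the other scalings, without the low-count filter, with limma-voom, with only the groups compared, with the replicate block or with the nerve score as a covariate. DESeq2 called 2 members at 1 h, 1 at 4 h and 2 for any difference among the 3 groups, beside 658, 557 and 627 genes in all. These made up 4.28% of the genes it tested at 1 h and 3.52% at 4 h. On the lists it called 1 leucine-zipper gene at 1 h, 2 MAP kinases at 1 h and 1 at 4 h, and 8 targets at 1 h and 5 at 4 h. Cxcl1 was the 1 target called with the replicate block at each time (1 and 1) and with the nerve score at 4 h. limma-voom left 0 members past 0.05 without adjustment at 4 h against 1 h, beside 2.2% of all genes. Leaving out 1 library gave 0 to 1 members called at 1 h. Without adjustment it gave 1 to 6 members past 0.05 at 1 h, 1 to 5 at 4 h and 0 to 2 at 4 h against 1 h. The all-gene shares in these fits were 8.04% to 23.5% at 1 h, 9.61% to 12.6% at 4 h and 0.806% to 20.7% at 4 h against 1 h. The lowest number at 1 h came without 1 h replicate 2: 1 member, higher, beside 10.7% of all genes in that direction and 19.7% in either. At 4 h it came without 4 h replicate 2: 1 member, higher, beside 5.3% and 11.3%. In these fits the members did not exceed the all-gene share clearly. The cause of these shifts was not tested.

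With the replicate block the log2 difference of Fos was 1.602 at 1 h and 1.89 at 4 h. Directions turned for values near 0. At 1 h Jund was at 0.22 and Atf3 at -0.073 with the nerve score. At 4 h Atf3 was at 0.13 with limma-voom and 0.082 with the nerve score. At 4 h against 1 h Atf3 was at 0.15 with the nerve score, and Maff at 0.071 with limma-voom and 0.063 with the replicate block. Leaving out 1 library gave ranges across 0 at 1 h for Fos (-0.15 to 3.71), Jund (-0.29 to 0.12) and Atf3 (-0.10 to 1.04), at 4 h for Atf3 (-0.38 to 0.74), and at 4 h against 1 h for Fos (-0.26 to 0.57), Junb (-0.40 to 0.27) and Maff (-0.51 to 0.51).

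Over all genes the 9, 14 and 6 calls (1 h, 4 h and any difference) became 658, 557 and 627 with DESeq2, 17, 110 and 30 with the nerve score, and 7, 7 and 0 with the replicate block. With only the groups compared they were 4 and 4, and for any difference 11 without the low-count filter and 10 with limma-voom. Leaving out 1 library gave 0 to 11, 1 to 14 and 0 to 7. Scaling by library size alone moved the median of all genes at 4 h to -0.15 and that of the members to 0.93. Whether the replicate numbers pair the libraries could not be decided, since the deviations within a group of 3 sum to 0. These deviations correlated from -0.65 to 0.66 for same-numbered libraries and from -0.71 to 0.65 for differently numbered ones. The block left 4, 4 and 1 members past 0.05 without adjustment at 1 h, at 4 h and at 4 h against 1 h. The all-gene shares were 18% at 1 h, 11.4% at 4 h and 2.5% at 4 h against 1 h. With 3 rats a group and these spreads, differences the size of those of Fos could not be resolved, and the Fosl1 and Batf values rest on few counts.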

Other observations

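Within the FOS group the count ratio of Fosl2 to Fos, which needs no scaling, was 1.97, 0.567 and 0.037 in the normal libraries, 0.121, 0.441 and 0.450 at 1 h and 0.161, 0.115 and 0.382 at 4 h. The normal libraries alone spanned all of the ischemic values. The ratio of Fosb to Fos was 0.183, 0.260 and 0.057 in the normal libraries, 0.208, 0.113 and 0.090 at 1 h and 0.136, 0.190 and 0.445 at 4 h, with normal replicate 3 again the lowest. Exact two-sided permutation tests over 3 against 3 libraries gave p-values from 0.3 to 0.9 for these ratios, before adjustment.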
